A study of Mus musculus with 151 samples.

Results

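The reproductive Nlrp genes are a group of 10 mouse genes, Nlrp2, Nlrp4a, Nlrp4b, Nlrp4c, Nlrp4e, Nlrp4f, Nlrp9a, Nlrp9b, Nlrp9c and Nlrp14, taken by name from the 35976 gene names in each of 7 RNA-seq count tables. All 10 were present in all 7 tables. The rule that chose them used names alone, though it was set with earlier results of these data known. The study compared female offspring conceived in vivo (Natural) with female offspring conceived by in vitro fertilization (IVF). Both groups came from CF-1 females and B6/SJL males. Natural offspring came from matings in the natural cycle and developed without embryo transfer. For IVF, eggs of superovulated CF-1 females were fertilized with B6/SJL sperm, embryos were cultured to the blastocyst stage, and blastocysts were transferred into pseudopregnant CF-1 recipients. A comparison of Natural with IVF therefore joins superovulation of the mother, fertilization in a dish, culture and transfer, which cannot be told apart. Pups of the adult cohorts were delivered by cesarean section and fostered to CF-1 dams in both groups. The methods name delivery at E18.5 for Natural and E19.5 for IVF, and a figure legend gives an IVF day between these. For the adult cohorts, day of delivery and group therefore cannot be told apart.

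Libraries were made from primordial germ cells (PGCs) at E13.5 (4 Natural and 5 IVF), from ovaries at E18.5 (4 and 6), 12 weeks (4 and 5) and 39 weeks (5 and 5), from single oocytes at 12 weeks (36 and 40) and 39 weeks (9 and 10), and from cumulus cells at 12 weeks (5 and 5), which makes 143 libraries. Oocytes and cumulus cells were collected after superovulation of the offspring themselves in both groups. The labels give E18.5 for the fetal ovaries of both groups, while the methods also name cesarean collection at E19.5 for IVF pregnancies, so for these ovaries a possible day of age and the group cannot be told apart. The 39-week Natural ovary replicate 5 is labelled 39 weeks in its title and 40 weeks in its source label. Total counts per library ranged from 2839022 to 43363799 in ovaries, and the lowest total was that of 12-week IVF replicate 4. They ranged from 4364495 to 8675189 in PGCs, from 839781 to 31126357 in single oocytes and from 2532824 to 6345249 in cumulus cells. Marker genes of the labelled cell types were present in all libraries, at levels that differed: the germ cell list (Ddx4, Dazl, Mael, Dppa3, Tex101, Pou5f1) summed to 2400 to 7788 CPM (counts scaled to the size of the library) in PGCs, the oocyte growth list (zona pellucida genes, Gdf9, Bmp15, Figla and others) to 31060 to 56780 CPM in 12-week oocyte sets and to 8265 to 101400 CPM in single 39-week oocytes, and the granulosa and cumulus list to 1256 to 2422 CPM in cumulus cells. In ovaries the oocyte growth list was 80.4 to 729 CPM. Per the methods, the ovaries for RNA came from different litters, with a cap on littermates in the adult cohorts. The labels do not say which of these libraries came from separate litters, so p-values measure the spread between these libraries.

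NLRP proteins carry a pyrin domain, a nucleotide-binding NACHT domain and leucine-rich repeats. Several members of the family, such as NLRP3, sense damage or infection and build inflammasomes that activate caspase-1. Another branch, which in mice has expanded by gene duplication, is transcribed mainly in the female germ line, where the messages build up during oocyte growth and serve the egg and the early embryo. NLRP5 (MATER) is a core protein of the subcortical maternal complex at the edge of the egg, NLRP14 is required in the egg for early development and has been tied to UHRF1 and to the mitochondrial calcium exchanger NCLX, and NLRP2, NLRP4E and NLRP4F have maternal roles in early development. NLRP9B is also known as a sensor in the gut epithelium.

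In the mm10 genome, 9 of the genes lie on chromosome 7 and Nlrp4f lies alone on chromosome 13 (chr13:65177111-65205977, minus strand). Nlrp9c (chr7:26322473-26403700), Nlrp4a (chr7:26435113-26476142) and Nlrp9a (chr7:26535023-26575615) lie within a single stretch of the chromosome. Nlrp9b (chr7:19991465-20073306), Nlrp4e (chr7:23301192-23362277), Nlrp4b (chr7:10687789-10730168), Nlrp4c (chr7:6045161-6105150) and Nlrp2 (chr7:5298547-5351035) lie nearer the start of the chromosome. Nlrp14 (chr7:107166990-107198102, plus strand) is far from the others. All 10 are protein coding, with 9 to 12 exons and coding lengths from 2589 bases (Nlrp4b) to 3138 bases (Nlrp2).

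Because these genes are duplicates, the share of 50-base stretches of each transcript that also occur in transcripts of another gene was computed from the GENCODE vM21 annotation. It was 0% for Nlrp14 and Nlrp4b, 0.835% for Nlrp2, 3.54% for Nlrp4a, and between 4.99% and 7.08% for Nlrp9a, Nlrp9b, Nlrp9c and Nlrp4f. Nlrp4c shared 14.1%, most often with Nlrp4e. Nlrp4e shared 36.9% with other genes, most often with the annotated genes Gm16443, Gm8486 and Gm8685. The coding sequences of Nlrp4c and Nlrp4e were identical at 93.9% of 2934 aligned bases, those of Nlrp9a and Nlrp9c at 87.7% and those of Nlrp9a and Nlrp9b at 84.6%. The Nlrp14 coding sequence was identical to the others at 66.9% to 70.5%. Values for Nlrp4c and Nlrp4e are therefore uncertain, and those for Nlrp14 rest on sequence of its own. Exons of Nlrp2 overlap a pseudogene on the opposite strand over 105 bases and those of Nlrp9b a pseudogene on the same strand over 136 bases. Whether the counting used the strand is not given in the sources used here.

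The RefSeq promoter table (GRCm38.p6) held 11 start sites for 9 of the 10 genes, Nlrp14 being the exception. The promoters of 4 genes are shown, each as the 250 bases before the RefSeq start site, 5′ to 3′ along the gene. Nlrp4f was taken because it was the highest member in oocytes and sits apart on chromosome 13. The 3 Nlrp9 genes were taken because they are close copies. The windows lie at chr13:65205717-65205966 (minus strand, Nlrp4f), chr7:26534773-26535022 (plus, Nlrp9a), chr7:26403701-26403950 (minus, Nlrp9c) and chr7:20007773-20008022 (plus, Nlrp9b). In the GENCODE annotation the Nlrp4f and Nlrp9b windows lie inside the gene, so the annotations place these starts differently. Capitals mark the E-box, the 6 letters CANNTG, to which basic helix-loop-helix factors such as FIGLA, a driver of oocyte genes, can bind.
Nlrp4f: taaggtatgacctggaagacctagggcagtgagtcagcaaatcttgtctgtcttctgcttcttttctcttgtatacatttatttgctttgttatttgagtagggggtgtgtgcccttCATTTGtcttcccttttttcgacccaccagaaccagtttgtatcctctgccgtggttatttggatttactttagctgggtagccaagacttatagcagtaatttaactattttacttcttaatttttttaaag
Nlrp9a: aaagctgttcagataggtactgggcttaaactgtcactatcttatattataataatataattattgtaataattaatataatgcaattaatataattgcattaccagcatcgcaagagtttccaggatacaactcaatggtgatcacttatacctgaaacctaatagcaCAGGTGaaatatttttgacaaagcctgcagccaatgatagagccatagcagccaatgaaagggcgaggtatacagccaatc
Nlrp9c: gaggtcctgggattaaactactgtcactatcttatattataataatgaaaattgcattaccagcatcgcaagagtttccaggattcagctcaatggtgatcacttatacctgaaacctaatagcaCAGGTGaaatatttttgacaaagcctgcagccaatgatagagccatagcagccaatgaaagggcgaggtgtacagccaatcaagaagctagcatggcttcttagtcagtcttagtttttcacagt
Nlrp9b: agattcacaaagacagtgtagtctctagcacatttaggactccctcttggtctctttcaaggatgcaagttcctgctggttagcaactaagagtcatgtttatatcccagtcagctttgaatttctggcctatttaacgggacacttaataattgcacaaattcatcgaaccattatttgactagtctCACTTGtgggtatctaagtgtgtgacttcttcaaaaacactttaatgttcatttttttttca
The Nlrp9a and Nlrp9c promoters shared an unbroken run of 106 bases that holds the CAGGTG E-box. The longest run shared by any other pair of these genes was 17 bases (Nlrp4a and Nlrp4c). Because the Nlrp9b and Nlrp4f windows lie inside the GENCODE genes, short runs shared with them do not measure how alike the promoters are. An E-box was found in 9 of the 11 member promoters, against 66.2% of the 32851 promoters of the table. Those of Nlrp2 and Nlrp4e had none. Nlrp4a and Nlrp4b are each counted at both of their start sites, and the Nlrp4b windows overlap. The homeobox-type letters TAATTG, read on both strands, were in the Nlrp9a and Nlrp9b promoters and in 7.17% of all promoters. The letters TATAAA were in the Nlrp9b promoter and in 12.4% of all promoters. These matches are a description of the letters in the window.

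Levels are given as CPM after TMM scaling, and levels of different genes are compared per kilobase of coding length. In 12-week oocytes, with counts of single oocytes summed per library set (5 Natural and 5 IVF sets), Nlrp4f was highest at 1150 ± 231 CPM per coding kilobase (SD, n = 10 sets). Nlrp14 followed at 849 ± 267, then Nlrp4a (389), Nlrp9c (376), Nlrp9a (255), Nlrp4b (208), Nlrp9b (151), Nlrp4e (85.4), Nlrp2 (16.0) and Nlrp4c (13.9), all in CPM per coding kilobase. Of neighbours in that order, only Nlrp4e and Nlrp2 had ranges over the 10 sets that did not overlap. The genes were measured in the same sets, and ranges leave out that pairing. Nlrp9c, for example, lay above Nlrp9a in every set, and order within sets was not tested. Every single oocyte had counts of all 10 genes, in 36 of 36 Natural and 40 of 40 IVF oocytes at 12 weeks and in 9 of 9 and 10 of 10 at 39 weeks. The members together took 11000 ± 744 CPM in Natural and 9283 ± 1255 CPM in IVF sets (SD, n = 5 and 5).

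**Figure D1:**
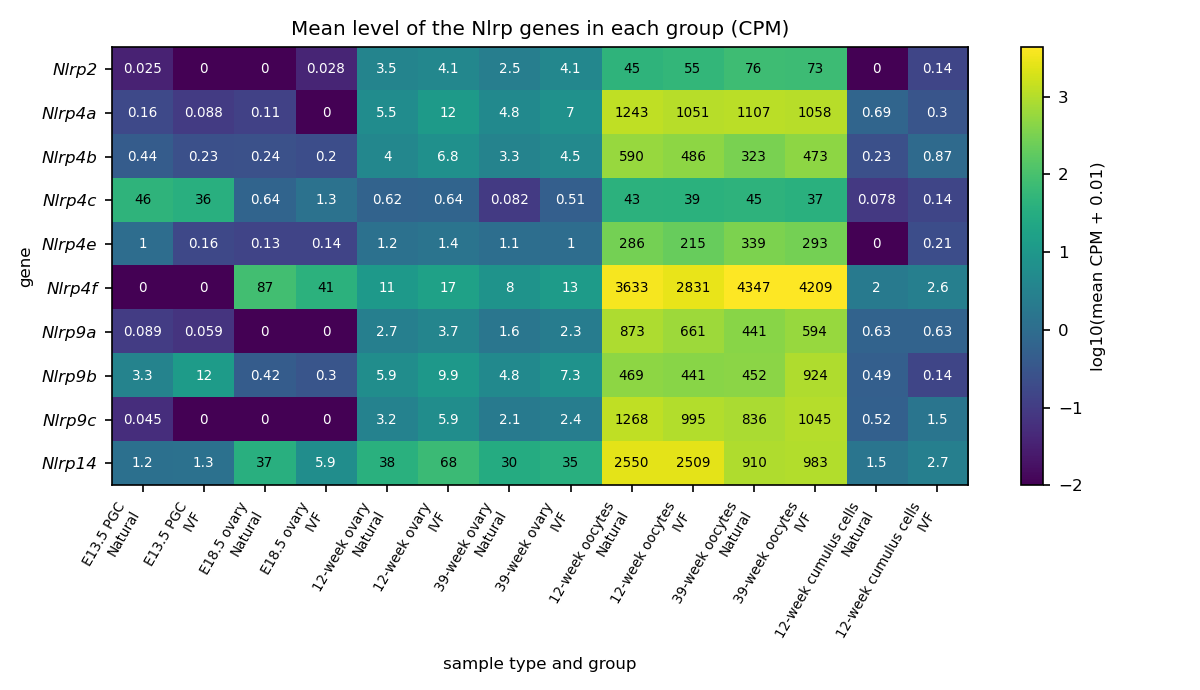
Mean level (CPM, TMM-scaled) of each of the 10 Nlrp genes in each sample type and group; colour gives log10(mean CPM + 0.01) and each cell prints the mean, with 12-week oocytes as sums per library set and 39-week oocytes as single oocytes. The oocyte columns hold the highest values of all 10 genes except Nlrp4c, whose 45.8 CPM in Natural PGCs is about as high as its 42.7 CPM in Natural 12-week oocytes.

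In whole ovaries, where oocytes are few among many somatic cells, the levels were lower and the order differed. Nlrp14 was highest at both adult ages, at 18.4 ± 8.54 CPM per coding kilobase at 12 weeks (SD, n = 9) and 11.0 ± 2.87 at 39 weeks (n = 10). Nlrp4f came next at 5.07 ± 1.92 and 3.69 ± 1.33, and the ranges of the pair did not overlap at either age. At E18.5 the order was turned, with Nlrp4f at 21.2 ± 14.0 and Nlrp14 at 6.14 ± 7.19 CPM per coding kilobase (SD, n = 10), with overlapping ranges. The ratio of Nlrp14 to Nlrp4f per coding kilobase was thus 0.377 ± 0.0903 in Natural ovaries at E18.5 (n = 4), 3.32 ± 1.17 at 12 weeks (n = 4) and 3.63 ± 0.572 at 39 weeks (n = 5). In Natural 12-week oocytes it was 0.671 ± 0.147 (n = 5 sets). Ovary and oocyte libraries were made with different kits, so levels were not tested between them.

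PGCs at E13.5 had a different pair of transcripts. Nlrp4c was the highest member at 13.7 ± 6.32 CPM per coding kilobase (SD, n = 9), followed by Nlrp9b at 2.77 ± 2.54 and Nlrp14 at 0.418 ± 0.307, each neighbour's range overlapping the next. Nlrp4f, the highest member in the oocyte, had 0 counts in all 9 PGC libraries, which allows up to 0.0492 CPM (3 counts over the 60922699 counts of the table). The remaining 6 genes had 0 to 20 counts in each group. At E18.5 Nlrp9a and Nlrp9c had 0 counts in 10 of 10 ovaries, which allows up to 0.0276 CPM (3 counts over 108721895). These limits cover counting error only.

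The first comparison asks whether conception by IVF changed these genes in the fetal ovary, where germ cells have entered meiosis and the earliest follicles form. Of the 10 members, 2 passed the filter on low counts, Nlrp14 and Nlrp4f. Nlrp14 was 39.6, 30.5, 10.5 and 67.0 CPM in the Natural ovaries and 8.86, 0.197, 4.33, 0.901, 15.8 and 5.16 CPM in the IVF ovaries. Of the 6 IVF ovaries 5 lay below the lowest Natural ovary, replicate 3, and IVF replicate 5 lay above it, so the groups overlapped. Nlrp14 fell from a mean of 36.9 ± 23.5 CPM to 5.88 ± 5.80 CPM (SD, n = 4 and 6), which is -2.68 ± 0.70 on the log2 scale (SE, adjusted p = 0.0412, edgeR quasi-likelihood with Benjamini-Hochberg). It was the only member called, of 2 tested, in a comparison in which 5.43% of 16415 genes were called and 2.75% were called lower.

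Nlrp4f was 107, 86.9, 31.1 and 124 CPM in the Natural ovaries and 54.5, 2.07, 41.3, 14.2, 76.0 and 58.6 CPM in the IVF ovaries. The same ovaries were low for both genes, Natural replicate 3 and IVF replicates 2 and 4. Its means were 87.2 ± 40.3 and 41.1 ± 28.1 CPM, and the log2 fold change of -1.09 ± 0.61 (SE) did not pass (adjusted p = 0.293, edgeR quasi-likelihood with Benjamini-Hochberg). Among the 8 members below the filter, Nlrp4c had 35 counts in Natural and 74 in IVF, Nlrp9b 22 and 16, Nlrp4b 14 and 10, Nlrp4e 6 and 8, Nlrp4a 6 and 0, and Nlrp2 0 and 2.

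**Figure D2:**
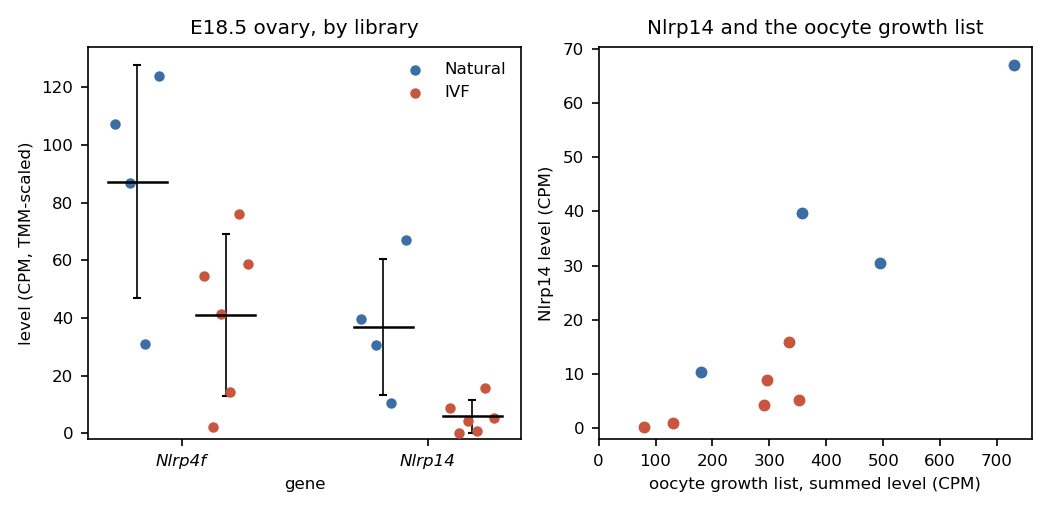
Left, level (CPM, TMM-scaled) of Nlrp4f and Nlrp14 in each E18.5 ovary, 4 Natural and 6 IVF, with the mean (line) and SD (bars). Right, Nlrp14 (CPM) against the summed level of the oocyte growth list (CPM) in the same ovaries; the IVF ovaries, at 80.4 to 351 CPM of the list, lie at or below 15.8 CPM of Nlrp14.

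Whole ovaries mix cell types, so fewer oocytes and less RNA per oocyte cannot be told apart in these RNA data. By staining of whole E18.5 ovaries, the study observed no difference in germ cell number between the groups. How that count bears on these libraries was not tested. Other oocyte genes moved with Nlrp14. In the subcortical maternal complex list, 4 of 6 genes tested were called lower in IVF and 0 higher, with a median log2 fold change of -1.95 against 0.00 over all genes. They were Khdc3 (-3.33), Ooep (-2.66), Padi6 (-2.55), which builds the egg's cytoplasmic lattices, and Tle6 (-1.35), all log2 fold changes. Nlrp5, the member of that complex closest to the genes described here, was 103 ± 33.6 CPM in Natural and 43.1 ± 35.5 in IVF (log2 fold change -1.25, adjusted p = 0.260, edgeR quasi-likelihood with Benjamini-Hochberg). In the oocyte growth list 3 of 10 genes tested were called lower, Zp3 (-3.14), Zp1 (-3.01) and Gdf9 (-2.14), and 0 higher, with a median of -1.74.

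The summed oocyte growth list ranged from 179 to 729 CPM in Natural and from 80.4 to 351 CPM in IVF ovaries. The sums of the germ cell list ranged from 174 to 633 and from 178 to 402 CPM. Its median log2 fold change was 0.27, and 1 of 6 genes, Pou5f1, was called lower. The blood list was higher in IVF, with 2 of 5 genes called (Alas2 and Hbb-bs), and its sums ran from 598 to 1599 CPM in Natural and from 1599 to 4577 CPM in IVF. The part of blood, stage or oocyte content in the Nlrp14 difference was not tested.

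As a share of the summed oocyte growth list, Nlrp14 was 0.0808 ± 0.0252 in Natural, with a range of 0.0585 to 0.111, and 0.0194 ± 0.0166 in IVF, with a range of 0.00245 to 0.0475, and the groups did not overlap. Most of that sum is Nobox, Sohlh1, Figla and Lhx8, genes of earlier oocyte stages with log2 fold changes of -0.50, -0.52, -0.58 and -0.03. As a share of the summed subcortical maternal complex list, Nlrp14 was 0.0356 to 0.0918 in Natural and 0.00193 to 0.0619 in IVF, and the groups overlapped. The log2 fold change of Nlrp14 lay among those of Khdc3, Zp3, Zp1, Ooep and Padi6, the called genes of these lists with the largest falls. Tle6 and Gdf9, also called, fell less than Nlrp14. So did the list medians, -1.95 for the subcortical maternal complex and -1.74 for oocyte growth. Relative to Nlrp4f, per coding kilobase, Nlrp14 was 0.318 to 0.511 in Natural and 0.0598 to 0.197 in IVF, also without overlap. Nlrp4f as a share of the oocyte growth list ranged from 0.170 to 0.301 in Natural and from 0.0257 to 0.228 in IVF and overlapped. These ratios were computed after the levels were seen and are a description with no test. The share of all genes with such a separation was not computed, so the separation is not read as particular to Nlrp14.

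The Nlrp14 call rested on most of the ovaries. With each ovary left out in turn, its log2 fold change stayed between -3.23 and -2.23, but it remained called in 3 of 10 cases. The call was lost without Natural replicate 2 (-2.77) or 4 (-2.23, adjusted p = 0.113), and without IVF replicate 1 (-2.87), 2 (-2.42), 3 (-2.62), 4 (-2.46) or 6 (-2.66), in edgeR's quasi-likelihood test. DESeq2 gave -2.66 with an adjusted p of 0.0466.

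The wider family and the inflammasome were given as lists. Of the 20 other NLR genes, 10 were tested at E18.5 and 0 were called in edgeR, with a median log2 fold change of -0.003, and the list includes Nlrp5 and Nlrp4g as well as Nod1, Nlrc5 and Nlrp3. Of 9 inflammasome partners 8 were tested, and 1, Txnip, was called lower, from 346 ± 62.6 to 232 ± 27.9 CPM (log2 fold change -0.58). Pycard, the adaptor of inflammasomes, was 9.38 and 8.17 CPM and Casp1 1.13 and 0.891 CPM. The partners of NLRP14 were also measured: Uhrf1 was 191 ± 17.1 and 151 ± 19.5 CPM (-0.34, adjusted p = 0.0925) and Slc8b1, which encodes NCLX, 11.7 ± 2.90 and 8.90 ± 2.16 CPM (-0.40, adjusted p = 0.301), in edgeR's quasi-likelihood test with Benjamini-Hochberg adjustment.

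At 12 weeks, when the ovary holds growing and full-size follicles, all 10 members passed the filter, and 9 of 10 log2 fold changes were above 0, with a median of 0.66 against 0.009 over all genes and 51.5% of genes above 0. None was called in edgeR's quasi-likelihood test, in a comparison that called 1 of 17628 genes (0.00567%). At an unadjusted p below 0.05 there were 3 members, Nlrp4a, Nlrp9c and Nlrp14, all higher, where 6.21% of genes were higher at that level. The members share the same 9 ovaries and much of the same cell type, so their common direction is not a set of independent observations.

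Nlrp4a was 3.91, 6.40, 4.83 and 7.03 CPM in the Natural ovaries and 7.04, 11.6, 17.9, 13.5 and 8.18 CPM in the IVF ovaries. Every IVF ovary lay above every Natural ovary, the closest pair being 7.03 and 7.04 CPM, where 2.46% of genes were separated in this direction. The means were 5.54 ± 1.43 and 11.7 ± 4.36 CPM (SD, n = 4 and 5), and the log2 fold change of 1.06 ± 0.31 (SE) had an adjusted p of 0.199 in edgeR and of 0.0310 in DESeq2 (1.04), both with Benjamini-Hochberg adjustment.

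Nlrp14 was 28.2, 64.3, 31.2 and 29.6 CPM in Natural and 38.5, 60.4, 97.4, 87.6 and 56.3 CPM in IVF ovaries. Natural replicate 2 stood above the other Natural ovaries and inside the IVF range. The means were 38.3 ± 17.4 and 68.1 ± 24.0 CPM (SD), with a log2 fold change of 0.82 ± 0.32 (SE, adjusted p = 0.294, edgeR quasi-likelihood with Benjamini-Hochberg). Nlrp4f had means of 10.9 ± 2.55 and 16.9 ± 5.81 CPM (log2 fold change 0.61).

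Among the Nlrp9 genes, Nlrp9c was 3.22 ± 0.853 CPM in Natural and 5.89 ± 1.96 CPM in IVF (log2 fold change 0.85), Nlrp9b 5.94 ± 2.36 and 9.88 ± 3.42 CPM (0.72) and Nlrp9a 2.71 ± 0.786 and 3.74 ± 1.30 CPM. Nlrp4b was 3.97 ± 1.07 and 6.85 ± 3.15 CPM (0.73). The members lowest per kilobase had log2 fold changes of 0.46 (Nlrp9a), 0.26 (Nlrp2), 0.20 (Nlrp4e) and -0.11 (Nlrp4c). IVF replicate 3 had the highest value of all 10 members except Nlrp4b and Nlrp4c, which were highest in IVF replicate 4. These were the ovary libraries with 9731457 and 2839022 counts, against 22249337 to 43363799 in the other IVF ovaries, and the part of depth in these values was not tested.

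**Figure D3:**
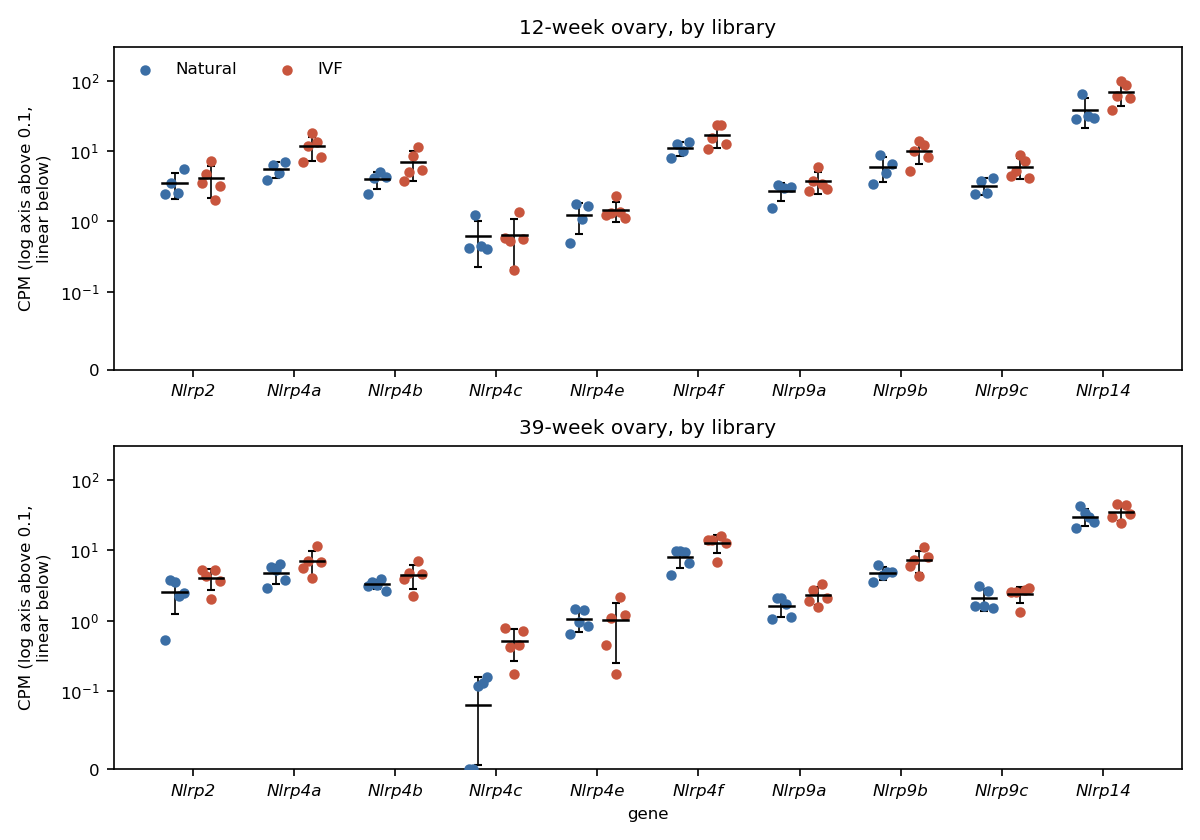
Level (CPM, TMM-scaled; log axis above 0.1 and linear below) of the 10 Nlrp genes in each ovary at 12 weeks (4 Natural, 5 IVF) and 39 weeks (5 and 5), with the mean (line) and SD (bars). At 12 weeks the Nlrp4a points of the groups do not overlap, and at 39 weeks those of Nlrp4c, a gene with 12 counts in Natural and 75 in IVF, do not overlap.

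Other oocyte genes lay in the same direction in the 12-week ovary. The subcortical maternal complex list had 6 of 6 log2 fold changes above 0 and a median of 0.41, and the oocyte growth list had 11 of 15 above 0 and a median of 0.47, each with 0 called in edgeR. Summed, the oocyte growth list was 136 to 296 CPM in Natural and 176 to 417 CPM in IVF ovaries. The granulosa and cumulus list was 1295 to 1780 and 1649 to 3490 CPM, and its part in the members' values was not tested. Nlrp14 as a share of the oocyte growth list was 0.108 to 0.217 in Natural and 0.218 to 0.239 in IVF, and Nlrp4f 0.0421 to 0.0663 and 0.0535 to 0.0605, a description with no test. Of the other NLR genes 18 of 20 were tested and 7 lay above 0 (median -0.06), and of the inflammasome partners 2 of 9 did (median -0.17), with 0 called.

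At 39 weeks, the oldest age, 9 members were tested and 8 log2 fold changes were above 0, with a median of 0.53 against 0.027 over all genes and 53.5% above 0. None was called, in a comparison in which edgeR called 45 of 17186 genes (0.262%), and DESeq2 called 0 of the members too. At an unadjusted p below 0.05 there were 2, Nlrp4f and Nlrp9b, both higher, where 10.4% of genes were higher at that level.

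Nlrp4f was 4.50, 9.68, 9.78, 9.44 and 6.63 CPM in Natural and 13.9, 14.1, 6.85, 16.1 and 12.7 CPM in IVF ovaries. Of the 5 IVF ovaries 4 lay above all Natural ovaries and IVF replicate 3 lay among them. The means were 8.01 ± 2.36 and 12.7 ± 3.49 CPM (SD, n = 5 and 5), a log2 fold change of 0.67 ± 0.28 (SE, adjusted p = 0.230, edgeR quasi-likelihood with Benjamini-Hochberg).

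Nlrp14 was 20.4, 42.2, 33.3, 29.3 and 25.5 CPM in Natural and 30.1, 44.9, 24.2, 43.8 and 33.2 CPM in IVF ovaries, and the groups overlapped along most of their range. Its log2 fold change was 0.23 ± 0.22 (SE), from 30.1 ± 8.26 to 35.2 ± 8.94 CPM. Nlrp9b went from 4.76 ± 0.946 to 7.33 ± 2.56 CPM (0.62), Nlrp4a from 4.79 ± 1.45 to 6.96 ± 2.75 CPM (0.54), Nlrp9a from 1.62 ± 0.504 to 2.33 ± 0.690 CPM (0.53) and Nlrp2 from 2.52 ± 1.30 to 4.07 ± 1.30 CPM (0.69), with log2 fold changes in parentheses.

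Nlrp4c was below the filter and had no test. It was 0, 0, 0.119, 0.129 and 0.160 CPM in Natural and 0.787, 0.426, 0.175, 0.443 and 0.702 CPM in IVF ovaries, so that every IVF ovary lay above every Natural one, a separation that 2.27% of the genes tested showed in this direction. These values rest on 12 and 75 counts in all, and its near copy Nlrp4e had 142 and 167 counts (log2 fold change -0.05). At 12 weeks the same gene had 59 counts in Natural and 58 in IVF.

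Other oocyte genes were measured in the same 39-week ovaries. The oocyte growth list had 13 of 14 log2 fold changes above 0 with a median of 0.35, the subcortical maternal complex list 4 of 6 with a median of 0.11, and 0 of either were called in edgeR. Nlrp5 was 13.8 ± 3.84 and 13.3 ± 2.98 CPM. The granulosa and cumulus list summed to 740 to 1788 CPM in Natural and 1195 to 3231 CPM in IVF ovaries, with 4 of the 5 IVF ovaries above every Natural one, and its part in the members' values was not tested. Nlrp4f as a share of the oocyte growth list was 0.0529 to 0.0753 in Natural and 0.0758 to 0.0970 in IVF ovaries, and Nlrp14 was 0.216 to 0.257 and 0.210 to 0.268. The ratio of Nlrp14 to Nlrp4f per coding kilobase was 3.63 ± 0.572 in Natural and 2.68 ± 0.498 in IVF (n = 5 and 5), with overlapping ranges.

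The next comparison asks whether the effect of IVF differed between ages, in 1 fit over the 29 ovaries. The 39-week effect minus the E18.5 effect on Nlrp14 was 2.94 ± 0.74 on the log2 scale (SE, adjusted p = 0.0158, edgeR quasi-likelihood with Benjamini-Hochberg), and it passed with each of the 29 ovaries left out in turn, with values from 2.54 to 3.50. In that contrast 7.95% of 19724 genes were called. The 12-week effect minus the E18.5 effect was 3.54 ± 0.78 (adjusted p = 0.0492, the same test), where 0.314% of genes were called. That call was at the threshold: it was kept in 7 of 29 cases with 1 ovary left out (3.11 to 4.10), namely without E18.5 Natural replicate 3 (3.85), E18.5 IVF replicate 5 (4.10), 12-week Natural replicate 2 (3.90), 12-week IVF replicate 2 (3.58) or 5 (3.60), 39-week Natural replicate 1 (3.54) or 39-week IVF replicate 1 (3.55), and lost in the other 22. The contrast of the adult ages was -0.60 ± 0.74 and did not pass (adjusted p = 0.729, the same test), where 2.71% of genes were called.

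Nlrp4a was below the filter at E18.5, with 6 counts in Natural and 0 in IVF, and entered this fit only through the adult ovaries where it is high. Its fitted 39-week difference from E18.5, 4.82 on the log2 scale, is set by a group at 0, and no difference between ages is read from it. Nlrp4f had 1.79 ± 0.70 at 39 weeks (adjusted p = 0.106) and 1.72 ± 0.73 at 12 weeks (adjusted p = 0.286) in the same test. For Nlrp9a and Nlrp9c, listed at 0 in E18.5 ovaries, no contrast with that age could be estimated. These 3 contrasts share ovaries, and those with E18.5 carry the possible day of age between the groups at E18.5.

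**Figure D4:**
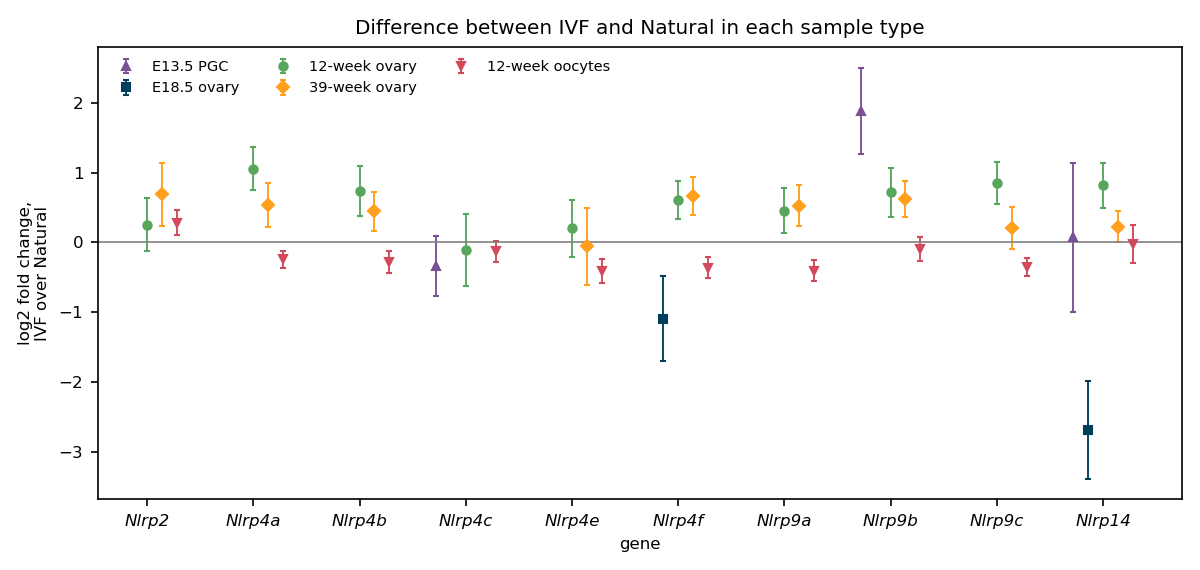
Log2 fold change of IVF over Natural for each Nlrp gene tested in PGCs, ovaries or 12-week oocytes, by sample type. Points give the value and bars its standard error. Cumulus cells are not drawn. Nlrp14 is at -2.68 in the E18.5 ovary and 0.82 in the 12-week ovary, while in 12-week oocytes the points lie between -0.41 and 0.28.

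In PGCs at E13.5, when female germ cells begin to enter meiosis, no gene of the table was called: edgeR called 0 of 12763 (0%), with 349 genes (2.73%) at an unadjusted p below 0.05, and DESeq2 called 0 of the members. Of the members 3 were tested, Nlrp9b, Nlrp4c and Nlrp14. Nlrp9b was 1.48, 1.97, 6.78 and 3.09 CPM in the Natural libraries and 11.6, 3.03, 10.4, 25.6 and 11.2 CPM in the IVF libraries. Of the 5 IVF libraries 4 lay above all Natural ones, and IVF replicate 2 lay among them. The means were 3.33 ± 2.40 and 12.3 ± 8.18 CPM (SD, n = 4 and 5), with a log2 fold change of 1.88 ± 0.62 (SE) that did not pass (adjusted p = 1, unadjusted p = 0.0105, edgeR quasi-likelihood with Benjamini-Hochberg). With 1 library left out it ran from 1.44, without IVF replicate 4, to 2.50, without Natural replicate 3.

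Nlrp4c, the main member in PGCs, was 45.8 ± 17.8 CPM in Natural and 36.1 ± 20.1 CPM in IVF libraries, a log2 fold change of -0.34 ± 0.43 (SE). Nlrp14 was 1.19 ± 0.902 and 1.29 ± 1.03 CPM. Of the untested members, Nlrp4e had 20 counts in Natural and 6 in IVF and Nlrp4b 13 and 7. The genes of the complex were partly present: Tle6 was 21.6 and 25.5 CPM and Ooep 13.2 and 9.82 CPM, while Nlrp5 and Padi6 were at or below 0.131 CPM in both groups. Uhrf1 was 57.1 ± 55.7 and 55.6 ± 11.4 CPM.

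In 12-week oocytes, IVF and Natural were compared over 5 library sets each. The sets were read from library names, and the labels do not say that each is a separate animal. Sets that share the leading field of the name may not be independent. Of the 10 members tested, 9 log2 fold changes were below 0, with a median of -0.26 against 0.024 over all genes and 53.1% above 0. None was called in edgeR's quasi-likelihood test, where 4 of 14444 genes were (0.0277%), and DESeq2 called 0 of the members too. At an unadjusted p below 0.05 there were 4, Nlrp9c, Nlrp9a, Nlrp4e and Nlrp4f, all lower, where 2.72% of genes were lower at that level. The blood list moved the other way, with 5 of 5 log2 fold changes above 0, a median of 1.77 and 0 called in edgeR. Its sums were 19.4 to 73.9 CPM in the Natural sets and 114 to 357 CPM in the IVF sets, except IVF set 5 at 7.23 CPM, and its part in the members' values was not tested.

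Nlrp9c was 1595, 1327, 1122, 1092 and 1205 CPM in the Natural sets and 1121, 981.8, 902.3, 1007 and 963.3 CPM in the IVF sets. Of the 5 IVF sets 4 lay below all Natural sets and IVF set 1 lay inside their range. Library names of IVF set 1 begin like that of a cumulus library labelled Natural, so its group rests on the oocyte labels alone. The Nlrp9c means were 1268 ± 204 and 995 ± 80.4 CPM (SD, n = 5 and 5), with a log2 fold change of -0.35 ± 0.13 (SE, adjusted p = 0.699, edgeR quasi-likelihood with Benjamini-Hochberg).

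Nlrp4f was 3363, 4189, 3823, 3163 and 3627 CPM in the Natural sets and 3354, 2307, 2848, 2121 and 3523 CPM in the IVF sets. The groups overlapped, with IVF sets 2, 3 and 4 below all Natural sets. The log2 fold change was -0.36 ± 0.15 (SE), from a mean of 3633 ± 400 to 2831 ± 619 CPM. Nlrp9a went from 873 ± 183 to 661 ± 96.0 CPM (-0.40), Nlrp4e from 286 ± 42.5 to 215 ± 56.1 CPM (-0.41), Nlrp4b from 590 ± 91.7 to 486 ± 99.0 CPM (-0.28) and Nlrp4a from 1243 ± 89.5 to 1051 ± 146 CPM (-0.24), with log2 fold changes in parentheses.

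Nlrp14 had nearly the same mean in both groups and values that lay further apart in IVF, a difference in spread that was not tested. It was 2836, 2123, 3199, 2480 and 2113 CPM in the Natural sets and 1506, 3238, 1167, 3602 and 3029 CPM in the IVF sets. IVF sets 1 and 3 were below, and IVF sets 2 and 4 above, the whole Natural range. The means were 2550 ± 469 and 2509 ± 1096 CPM, the log2 fold change was -0.02 ± 0.28 (SE), and its sign turned without IVF set 3 (0.15), IVF set 1 (0.11), Natural set 3 (0.07) or Natural set 1 (0.02). Across single oocytes the lowest, median and highest Nlrp14 levels were 197, 2390 and 4037 CPM in 36 Natural oocytes and 231, 2430 and 5838 CPM in 40 IVF oocytes. Nlrp2 was 45.4 ± 5.00 and 55.3 ± 15.6 CPM in the sets (0.28), the only member above 0.

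**Figure D5:**
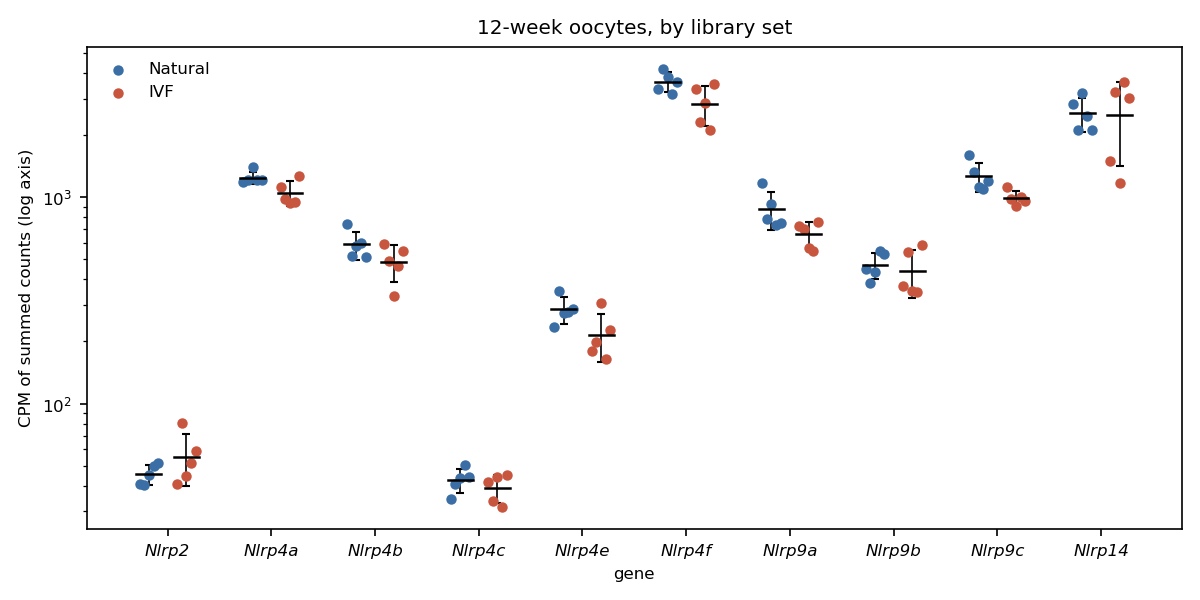
Level (CPM of summed counts, log axis) of the 10 Nlrp genes in the 5 Natural and 5 IVF library sets of 12-week oocytes, with the mean (line) and SD (bars). The Nlrp14 values of the IVF sets run from 1167 to 3602 CPM, wider than the 2113 to 3199 CPM of the Natural sets.

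Among related genes in these oocytes, Nlrp4g, a copy that shares transcript sequence with Nlrp4f, was 2381 ± 212 and 1767 ± 279 CPM (log2 fold change -0.43, adjusted p = 0.699, edgeR quasi-likelihood with Benjamini-Hochberg). The subcortical maternal complex list had 4 of 6 log2 fold changes above 0 (median 0.37), among them Nlrp5 at 151 ± 27.7 and 190 ± 37.9 CPM, and 0 called. Of the 9 inflammasome partners 4 were tested and 0 called (median -0.04). Txnip, at 1876 ± 525 and 1983 ± 534 CPM, made up most of their sum and Nek7 was 34.0 and 30.3 CPM, while the other 7, among them Pycard and Casp1, had group means of at most 0.390 CPM. Uhrf1 was 1020 ± 130 and 916 ± 193 CPM and Slc8b1 0.502 ± 0.446 and 0.272 ± 0.305 CPM. Granulosa and cumulus markers summed to 20.2 to 41.6 CPM in Natural and 24.3 to 58.3 CPM in IVF sets.

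For 39-week oocytes the labels name no donor, so each group is 1 sample, no test was made, and counts were summed over 9 Natural and 10 IVF oocytes. Intervals are exact Poisson intervals and cover counting error only. Nlrp9b was 398 CPM in Natural and 878 CPM in IVF, a ratio of 2.21 (2.18 to 2.23). Its lowest, median and highest single-oocyte values were 47.7, 395 and 753 CPM in Natural and 253, 836 and 1457 CPM in IVF, so the ranges overlapped. With 1 oocyte left out at a time the log2 ratio ran from 0.90 to 1.32. Natural oocytes 6 and 9 stood apart, with 15090 and 8265 CPM of the oocyte growth list against 43130 CPM or more in the other Natural and 41430 CPM or more in all IVF oocytes. Without both, Nlrp9b was 519 and 878 CPM, a ratio of 1.69. The blood list ran from 116 to 22130 CPM in Natural and from 3.05 to 31420 CPM in IVF oocytes, and its part in these ratios was not tested.

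Nlrp4b followed, at 284 and 475 CPM and a ratio of 1.67 (1.65 to 1.69), with a log2 ratio of 0.49 to 0.88 over the cases with 1 oocyte left out. These were the 2 of 10 members at least 1.5-fold higher in IVF, against 21.2% of 12319 genes with at least 1 CPM. The count ran from 1 to 3 with 1 oocyte left out and was 1, Nlrp9b, without Natural oocytes 6 and 9, where Nlrp4b had a ratio of 1.40. No member was 1.5-fold lower, against 31.4% of genes. Nlrp9a had a ratio of 1.40, Nlrp9c of 1.27 and Nlrp14 of 1.10 (787.5 and 866 CPM), which was 0.809 without those 2 oocytes. Nlrp4f was 4008 and 3974 CPM, a ratio of 0.992, and Nlrp2, Nlrp4a, Nlrp4e and Nlrp4c had ratios of 0.979, 0.968, 0.816 and 0.750. The lowest, median and highest Nlrp14 values of single oocytes were 48.3, 887 and 2206 CPM in Natural and 335, 1001 and 1411 CPM in IVF.

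In cumulus cells, which surround the egg and are somatic, 1 member passed the filter. Nlrp4f had 50 counts in Natural and 49 in IVF, with a log2 fold change of 0.44 ± 0.64 (SE, adjusted p = 0.960, edgeR quasi-likelihood with Benjamini-Hochberg), in a comparison that called 0.00973% of 10280 genes. Reads of the members were nearly all in libraries with numbers as names. These held 35, 54 and 68 counts of the members in the 3 labelled Natural and 44, 62 and 47 in the 3 IVF libraries, while the libraries named by group held 0 in both Natural and 4 in each of both IVF libraries. The library labelled Natural replicate 5, with 68 counts, 24 of them Nlrp4f, has a name that begins like those of an IVF oocyte set. Without it the log2 fold change of Nlrp4f was 0.82 and was not called (adjusted p = 0.954, the same test), so no statement on the groups is drawn from these counts. The oocyte growth list had 589 and 563 counts in the numbered libraries, as labelled, and 10 and 9 in the others. The part of oocyte RNA in these values was not tested.

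The genes whose pattern was most like that of Nlrp4f and Nlrp14 were sought over the 29 ovaries, by the Pearson correlation of log2 CPM centred within each age with the mean of the pair, among 16017 genes. They were Oas1e (0.978), Padi6 (0.973), Ooep (0.966), Nlrp4g (0.963), Oas1h (0.959), Noto (0.958), Zp2 (0.957), Fbxw24 (0.957), Zp1 (0.955) and Wee2 (0.954). Among the members, the highest correlations over the 29 ovaries were 0.915 (Nlrp4f and Nlrp14), 0.736 (Nlrp9a and Nlrp9c), 0.691 (Nlrp4a and Nlrp9c), 0.688 (Nlrp4a and Nlrp9a) and 0.662 (Nlrp2 and Nlrp9a). The points share libraries and the number of oocytes per ovary, and no test was made.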

How the data were processed

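The members and the gene lists were chosen with earlier results of these data known. RNA-seq counts came from 7 tables with 143 libraries, and 8 described samples, cumulus cells at 39 weeks among them, were not analysed here. The authors deposited raw counts of reads per gene, without normalization. Per the labels and the methods, ovary libraries were made with a KAPA mRNA kit and PGC, oocyte and cumulus libraries with a modified SMART-Seq protocol. Low-input reads were trimmed, aligned to mm10 with STAR and counted with featureCounts, and the submitters' processing notes name Trimmomatic 0.32, STAR 2.3.0e, featureCounts 1.5.0 and DESeq2. How reads that fit several copies of a gene were treated is not given in the sources used here. Even numbers made up 52.6% to 70.4% of counts above 10, and the cause was not tested. Of the gene names in each ovary table, 25 had turned into numbers, and no member was among them.

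Each comparison was fitted over the whole table with edgeR 4.0.16 in R 4.3.3 (TMM scaling, the default filter on low counts, quasi-likelihood test, Benjamini-Hochberg adjustment over all genes tested, called at an adjusted p below 0.05). Counts of 12-week oocytes were summed per library set, read from the library names. For cumulus cells the library set entered as a covariate. 39-week oocytes had no test. The effects at different ages were contrasted in 1 fit over the 29 ovaries. Named genes were the 10 members, the called genes of each list (or the leading genes of the list where none was called) and the 10 most alike genes; other genes named in the text were chosen after their values were seen. Alternatives were DESeq2 1.42.0, other size factors, no filter, each library left out, the replicate number as a block, and others for single cells. The exact intervals are at 95%. Scripts were tested on simulated data. Figures were drawn with matplotlib 3.10.9. Depth limits what can be seen of members with few counts.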

Additional observations from a re-analysis of the deposited data

Results flagged for a closer look

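A test for a sample far from the others of its group was made in 90 groups of 4 to 10 values of the members, of which chance gives about 1 in 20, and it found 7. In 12-week ovaries, the highest Natural value of Nlrp14 (64.3 CPM) lay far above the other Natural values of 28.2 to 31.2 CPM, and that of Nlrp4c (1.21 CPM) above 0.405 to 0.442 CPM, both in Natural replicate 2. The highest 12-week IVF value of Nlrp4e was 2.25 CPM against 1.12 to 1.35 CPM in the others, and the lowest 39-week IVF value of Nlrp9c was 1.34 CPM against 2.53 to 2.90 CPM. In PGCs, 1 Natural library had 19.3 CPM of Nlrp4c and the other 3 had 52.7 to 57.0 CPM. In 12-week oocytes, 1 Natural set had 1401 CPM of Nlrp4a against 1180 to 1212 CPM, and in 39-week oocytes 1 Natural oocyte had 201 CPM of Nlrp2 against 23.1 to 84.3 CPM.

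The effect of IVF differed between ages for Nlrp14, with a log2 difference of 2.94 for 39 weeks minus E18.5 (adjusted p = 0.0158) and of 3.54 for 12 weeks minus E18.5 (adjusted p = 0.0492), in edgeR's quasi-likelihood test with Benjamini-Hochberg adjustment. Median log2 fold changes of the subcortical maternal complex list were -1.95, 0.41 and 0.11 at E18.5, 12 and 39 weeks. Those of the oocyte growth list were -1.74, 0.47 and 0.35, so the turn is not read as particular to Nlrp14. For Nlrp4a the fitted 39 weeks minus E18.5 difference was 4.82 (adjusted p = 0.0229, the same test). The gene had 6 counts in Natural and 0 in IVF at E18.5 and entered the fit only through the adult ovaries, so no difference between ages is read from it. The test did not pass without E18.5 Natural replicate 4 (3.91) or with the replicate block (4.58, adjusted p = 0.0611).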

How the results depend on the processing

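The E18.5 count of 1 member called was 1 with DESeq2, other size factors or no filter, 0 with the replicate block (Nlrp14 -3.57, adjusted p = 0.197 in edgeR), and 0 to 1 with an ovary left out. At 12 weeks DESeq2 called 1 member (Nlrp4a). For 12 weeks minus E18.5, where 1 was called, DESeq2 called 2 (Nlrp14 and Nlrp4a). With other size factors, no filter, at least 10 counts in 4 ovaries or the replicate block it was 0, with Nlrp14 at 3.52, 3.57, 3.54 and 4.41, and with an ovary left out 0 to 2. For 39 weeks minus E18.5, where 2 were called with Nlrp4a, which is void at E18.5 for its few counts, 1 was called with the block (Nlrp14 at 3.75) and 1 to 2 with an ovary left out. The block changed no other call. Under it the 39 minus 12 weeks difference of Nlrp4f turned from 0.07 to -0.006.

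Same-numbered samples did not deviate together in every pair, with correlations of -0.132 to 0.01 at E18.5, -0.357 to 0.252 and -0.006 to 0.399 in 12- and 39-week ovaries, -0.068 to 0.536 in PGCs and -0.321 to 0.172 in cumulus cells, so the numbers were not taken to pair them. For 12-week oocytes no paired analysis was possible because the labels number no pairs of sets.

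Signs of uncalled values turned when 1 library was left out: Nlrp2 (-0.012 to 0.545), Nlrp4c (-0.31 to 0.39) and Nlrp4e (-0.077 to 0.38) in 12-week ovaries, Nlrp4e (-0.52 to 0.22) in 39-week ovaries, Nlrp14 in PGCs (-0.30 to 0.40) and in 12-week oocytes (-0.19 to 0.15), and Nlrp4f for 39 minus 12 weeks (-0.079 to 0.224). Summing 12-week oocytes by the leading field of the library name, 2 against 2, gave 0.091 for Nlrp14.

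Averaging 39-week oocytes in place of summing them gave log2 ratios of -0.078 (Nlrp2), 0.63 (Nlrp4b), -0.33 (Nlrp4c), -0.23 (Nlrp4e), -0.064 (Nlrp4f), 0.43 (Nlrp9a), 1.01 (Nlrp9b), 0.31 (Nlrp9c) and 0.16 (Nlrp14). With Natural oocytes 6 and 9 left out, chosen after seeing the data, they were -0.197 (Nlrp2 and Nlrp4a), 0.489 (Nlrp4b), -0.208 (Nlrp4c), -0.19 (Nlrp4e), -0.198 (Nlrp4f), 0.292 (Nlrp9a), 0.76 (Nlrp9b), 0.359 (Nlrp9c) and, with the sign turned, -0.306 (Nlrp14). The cause of these changes was not tested. In cumulus cells the numbered libraries alone, an alternative chosen after seeing the data, gave 0 members called.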
